A study of Mus musculus with 2 samples.

Results

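Methylation was described at 2 mouse genes, Rbfox1 and Rbfox3, in whole-genome bisulfite sequencing of the dentate gyrus. The members were all cytosines listed with at most 100 reads in 2 fixed windows of the mm9 genome build, chr16:5890000-7410000 for Rbfox1 and chr11:118350000-118775000 for Rbfox3. Replicate 2 listed 18484 such cytosines, 16411 in the Rbfox1 window and 2073 in the Rbfox3 window, of 27435342 in that whole library. The limit of 100 reads removed nothing here, since the deepest site had 63 reads in the Rbfox1 window and 41 reads in the Rbfox3 window. The windows were taken as given: no mm9 gene annotation was used, so exons, introns and gene ends inside them were not assigned.

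The series holds 1 group of 2 libraries, labelled WT, from male C57Black6 mice of 8 to 10 weeks. There was no treatment and no second genotype, and the libraries are described as biological replicates. Bisulfite turns unmethylated cytosine into a base read as thymine, so the share of reads that still show cytosine is the methylation level. Such reads do not separate methylcytosine from hydroxymethylcytosine, the levels are averages over all cell types of the dissected tissue, and a methylation table holds no transcripts by which the tissue could be checked.

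RBFOX1 and RBFOX3 are RNA-binding proteins that steer alternative splicing in neurons. RBFOX3 is the antigen NeuN, used to mark neuronal nuclei, and Rbfox1 is known for its very long gene. In mammalian cells most methylated cytosines are followed by guanine (CpG). Mature neurons also carry methylation at CpH, where H is A, C or T, which DNMT3A deposits mainly at CA. CpH sites are split here into CHG and CHH by the base after that.

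All tables cover the strand class named OT, the top strand of the genome. By the strands in the RefSeq table, it is the coding strand of Rbfox1 and the template strand of Rbfox3, so values of the genes side by side also differ in strand. Site depth had a median of 23 reads for CpG and CHG and 32 reads for CHH in the Rbfox1 window, and of 22, 22 and 31 reads in the Rbfox3 window. Listed CHG sites lay at 7.78 per kb in the Rbfox1 window and 3.61 per kb in the Rbfox3 window, against 7.56 per kb over the autosomes. A level is the share of methylated reads among all reads on the sites named, and the range after it is an exact Clopper-Pearson 95% interval. PCR reads that carry no molecular identifiers are not independent, and sites of 1 library are not replicates, so these intervals cover counting error only. The CpH level of mitochondrial DNA, 0.368% in replicate 2 and 0.418% in replicate 1, gives the background of unconverted or misread cytosine on the assumption that this DNA is little methylated.

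The deposited tables hold no bases, so sequence could be shown only where a RefSeq promoter (GRCm38.p6, 250 bases before to 50 after a gene start) fitted the listed cytosines of the chromosome by spacing and context at a single place. Of 40 promoters of the members and of genes within their windows and flanks, 3 were placed by at least 8 listed cytosines and at least 3 more than anywhere else on the chromosome, a limit chosen after the fits were seen. None of the 3 promoters of Rbfox1 and Rbfox3 themselves was placed, so none is printed. The placed promoters inside the Rbfox1 window belong to the non-coding genes Gm36902 (8 cytosines, chr16:5951598-5951897, gene on the bottom strand) and 1700123O21Rik (12 cytosines, chr16:5975429-5975728, gene on the top strand). Their starts are 23831 bases apart both in these positions and in the RefSeq table. They are shown because they are the stretches of Rbfox1 in which measured cytosines can be set on bases. Both are written along the top strand, and capitals mark the cytosines that replicate 2 lists.
Gm36902: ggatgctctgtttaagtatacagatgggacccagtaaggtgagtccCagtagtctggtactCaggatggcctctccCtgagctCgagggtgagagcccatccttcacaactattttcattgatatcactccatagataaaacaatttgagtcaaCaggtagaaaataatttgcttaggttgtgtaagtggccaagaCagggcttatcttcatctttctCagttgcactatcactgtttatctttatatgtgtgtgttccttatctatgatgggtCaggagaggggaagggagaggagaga
1700123O21Rik: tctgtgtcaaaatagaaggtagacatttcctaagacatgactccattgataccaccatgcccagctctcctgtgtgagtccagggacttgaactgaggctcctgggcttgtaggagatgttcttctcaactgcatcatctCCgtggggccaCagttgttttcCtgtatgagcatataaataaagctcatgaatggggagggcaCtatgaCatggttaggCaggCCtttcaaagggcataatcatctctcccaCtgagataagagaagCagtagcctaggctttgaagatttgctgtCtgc

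Each promoter held 1 listed CpG, and both were methylated: 22 of 24 reads (91.7%) in Gm36902 at base 84 of the printed run, and 13 of 23 reads (56.5%) in 1700123O21Rik at base 142. The cytosine just before the CpG of 1700123O21Rik, at base 141 in a CCG, had 0 of 23 reads methylated, which allows up to 14.8%. In Gm36902 the most methylated CHG was a CAG at base 219, with 4 of 29 reads (13.8%), followed by the CAG at base 47 with 1 of 21 reads (4.76%). In 1700123O21Rik the CAG at base 152 had 2 of 27 reads methylated (7.41%). All other listed CpH cytosines of both promoters, 5 in Gm36902 and 9 in 1700123O21Rik, had no methylated read. At 20 to 30 reads a site at 0 still allows a level of 11.6% to 16.8%, so single CpH sites of a few percent were not detectable at this depth.

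Across its 1520 kb, the Rbfox1 window was methylated at 74.3% of CpG reads (73.9 to 74.7, 1705 sites). Its CHG level was 0.769% (0.737 to 0.802, 11831 sites) and its CHH level 0.768% (0.713 to 0.826, 2875 sites), which are 0.401 and 0.40 points over the mitochondrial background. No methylated read was seen at 89.7% of its CHG sites and 87.8% of its CHH sites. Methylated CpH reads were thus sparse in Rbfox1, and its CHG level was close to that of the genome at large. Among 1 Mb bins of the autosomes, the median was 79.5% for CpG, 0.759% for CHG and 0.893% for CHH. Rbfox1 stood above 10.6% of these bins for CpG, 52.9% for CHG and 27.9% for CHH. Against autosomal bins as long as the window itself, it stood above 9.04%, 50.8% and 25.5%.

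Rbfox3 was the less methylated gene at CpG. Its 425 kb window had a CpG level of 61.4% (60.3 to 62.4, 352 sites), and only 3 of 2408 autosomal 1 Mb bins were lower. Against bins of 425 kb, 22 of 5648 were lower. Its CHG level was 0.594% (0.516 to 0.680, 1536 sites), above 11.8% of 1 Mb bins, and its CHH level was 0.915% (0.688 to 1.19, 185 sites), above 54.5% of them. Over the mitochondrial background the CHG level of Rbfox3 was 0.226 points and its CHH level 0.548 points. Rbfox1 exceeded Rbfox3 by 13.0 points for CpG (11.8 to 14.1) and by 0.175 points for CHG (0.0834 to 0.259). For CHH the difference of Rbfox1 minus Rbfox3 was -0.148 points with an interval that includes 0 (-0.430 to 0.0866), and Rbfox3 had few CHH sites to set it by.

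**Figure D1:**
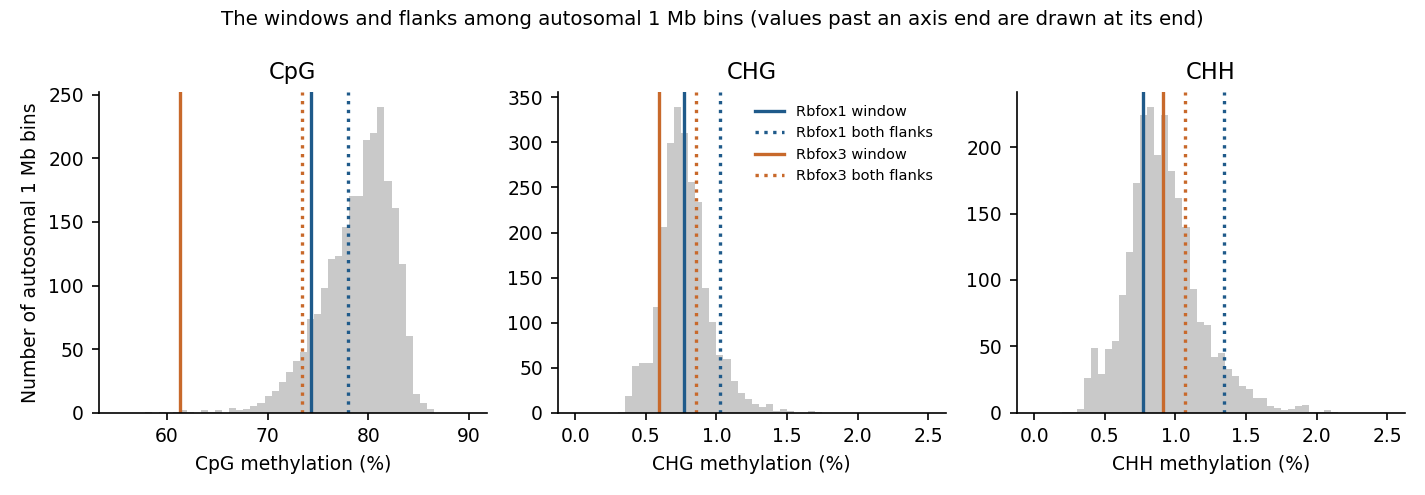
Histograms of the methylation level of autosomal 1 Mb bins in replicate 2 (number of bins against level in percent) for CpG, CHG and CHH, with vertical lines for the Rbfox1 and Rbfox3 windows (solid) and their pooled 500 kb flanks (dotted). The Rbfox3 window lies at 61.4% in the low tail of the CpG bins, while the Rbfox1 window lies at 0.769%, near the middle of the CHG bins, and its flanks at 1.03% in the upper part.

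The Rbfox1 window was set against the 500 kb on each side of it. The genes of these mm9 flanks were not looked up. In its own coordinates, the RefSeq table lists no protein-coding gene within 500 kb of Rbfox1 on either side. Genes that overlap an end of Rbfox1 were not counted. CpH methylation was lower inside the window than outside. The flanks together had a CHG level of 1.03% (0.981 to 1.08, 7471 sites) and a CHH level of 1.35% (1.25 to 1.44, 1814 sites), above 91.9% and 93.6% of autosomal 1 Mb bins. Window minus flanks was -0.258 points for CHG (-0.316 to -0.201) and -0.578 points for CHH (-0.689 to -0.470), so that the CHH level of the window was 0.570 times that of the flanks. Each flank alone gave the same direction, with CHG differences of -0.283 points from the left and -0.234 points from the right flank, and CHH differences of -0.534 and -0.618 points. With flanks of 1000 kb the CHG difference fell to -0.126 points, and among the 109 window and 63 flank sites of at least 40 reads the CHH difference was -0.0348 points. For CpG the pooled flanks had 78.0%, a difference of -3.68 points (-4.37 to -2.98), but this rested on the right side: the left flank at 74.7% differed by -0.42 points with an interval that includes 0 (-1.34 to 0.502), and the right flank at 81.2% by -6.88 points (-7.71 to -6.03).

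The change at the right end of the Rbfox1 window was larger than that at the left. In the last 100 kb inside the right edge CHG was 0.804%, CHH 0.501% and CpG 77.9%, and in the first 100 kb outside these were 1.13%, 1.95% and 85.8%. The intervals of the inner and outer values did not overlap for any of the 3 contexts (CHG 0.667 to 0.962 against 0.965 to 1.31, the closest). At the left edge the inner 100 kb had 0.937% CHG, 0.630% CHH and 71.4% CpG, and the outer 100 kb 0.996%, 0.952% and 72.6%. There the intervals overlapped in all 3 contexts.

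Within Rbfox1 the CHG level was lower in each successive stretch of 380 kb along the top strand, which is the direction of the gene. The 4 stretches had 0.841% (0.776 to 0.910), 0.785%, 0.759% and 0.673% (0.609 to 0.742). The intervals of the first and the last did not overlap, while those of neighbours did. CHH followed no such order, with 0.702%, 0.820%, 0.806% and 0.718%. CpG was 75.3%, 74.2% and 75.7% in the first 3 stretches and 71.8% (70.8 to 72.7) in the last, whose interval lay below those of the others.

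In steps of 50 kb, the CHG level of Rbfox1 ran from 0.517% to 1.20% with a mean of 0.770% ± 0.160 (SD over 31 steps, the last of 20 kb). The 20 flank steps ran from 0.548% to 1.59% with a mean of 1.02% ± 0.256. Of the 31 Rbfox1 steps, 28 lay below the median flank step, yet only 2 lay below the lowest flank step, so the ranges overlapped widely. Counted by intervals clear of the autosomal median, 4 of 31 Rbfox1 steps were above it and 3 below, against 22.2% and 25% of all autosomal 50 kb bins. Of the 20 flank steps 12 were above and 1 below. For CHH, 1 of 30 Rbfox1 steps with at least 20 sites was above and 8 below, beside 20% and 26.3% of autosomal bins, and 9 of 19 flank steps were above and 0 below. For CpG, 2 of 31 steps were above and 20 below, beside 41.7% and 31.5% of bins, and 5 of 20 flank steps were above and 9 below. In Rbfox1 the shares of CHG steps above and below were thus both under the background. The share of CpG steps below was over it in the window and also in the flanks.

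The 3 Rbfox1 steps richest in CHG methylation began at positions 6290000 (1.20%, 1.0 to 1.42), 6740000 (1.04%, 0.856 to 1.26) and 6040000 (0.994%, 0.801 to 1.22) of chromosome 16. The poorest began at 7240000 (0.517%, 0.376 to 0.693), 7190000 (0.521%, 0.381 to 0.697) and 6890000 (0.568%, 0.443 to 0.718), all in the right part of the window. Whether CHH tracked CHG over all steps was not tested. Among the 3 richest steps CHH was 1.07% at 6290000, 0.506% at 6740000 and 0.702% at 6040000, against 0.768% in the whole window. Among the poorest it was 0.775% at 7240000 and 0.421% at 6890000. The step at 7190000 had the lowest CHH value of the window, 0.146% (0.0176 to 0.525, 44 sites), in other words not above the mitochondrial background. Among these 6 steps CpG ranged from 65.7% at 7240000 to 78.5% at 6740000 and 6890000.

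**Figure D2:**
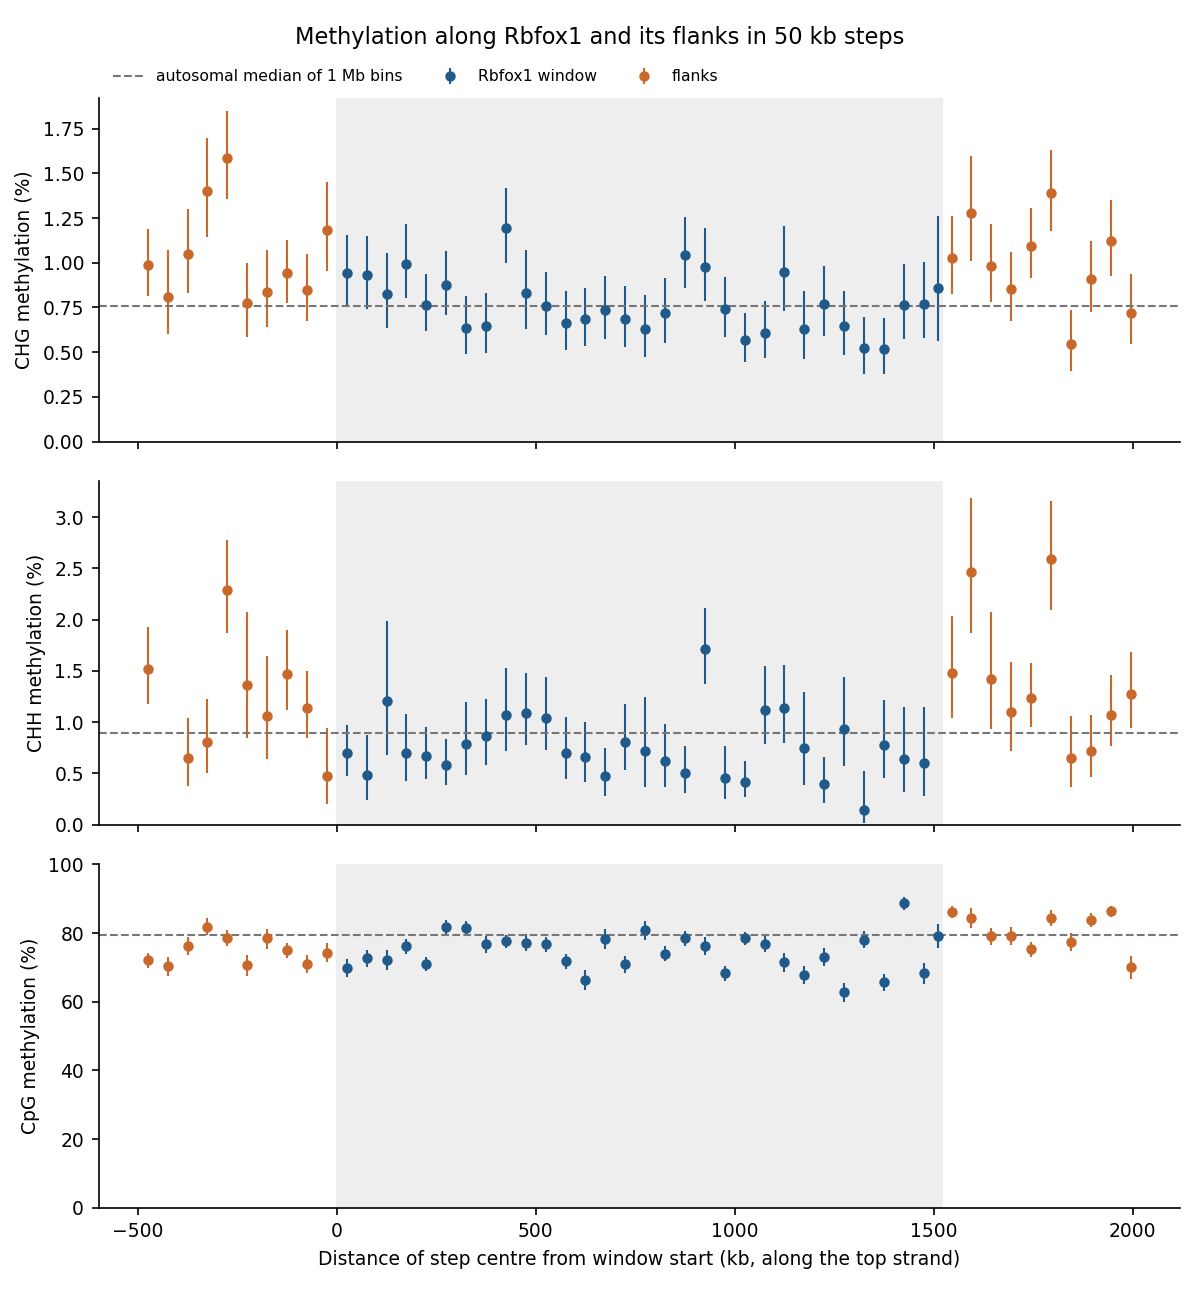
CHG, CHH and CpG methylation (percent of reads, 95% counting intervals) of 50 kb steps against the distance of the step centre from the window start in kb. Blue points are steps of the Rbfox1 window (grey shading), orange points are steps of its 500 kb flanks, and the dashed line is the median of autosomal 1 Mb bins. CHG steps of the window range from 0.517% to 1.20% around the dashed line, and those of the flanks reach 1.59%.

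Sites of Rbfox1 ranged over the full scale of CpG methylation, with a median site level of 85.0%. Of 1705 CpG sites 56.8% were above 80%, 23.4% above 50 and up to 80%, 12.6% above 20 and up to 50%, and 7.21% at most 20%. The flanks held 63.4%, 21.7%, 10.5% and 4.50% in the same classes. Clusters of unmethylated CpG are typical of CpG islands and promoters. Rbfox1 had 1 run of at least 5 listed CpG sites at or below 20% and spaced by at most 500 bases, chr16:7145474-7145860, where 5 CpG sites over 387 bases had 11 of 105 reads methylated (10.5%, 5.35 to 18.0). It lay in the step with the lowest CpG level of the window (62.8%, beginning at 7140000). With runs of at least 3 sites there were 8. Runs were counted only inside the windows, so these counts have no background share.

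The Rbfox3 window was also set against the 500 kb on each side of it, and the genes of these mm9 flanks were again not looked up. In its own coordinates, the RefSeq table lists 10 protein-coding genes within 500 kb on the left of Rbfox3 and 12 on its right. Those on the left include Timp2, an inhibitor of matrix metalloproteinases, and those on the right the lysosomal enzyme genes Gaa and Sgsh. CpG methylation was lower in Rbfox3 than on both sides. The flanks together had 73.4% (72.8 to 74.0, 1014 sites), and window minus flanks was -12.0 points (-13.3 to -10.8), or -11 points from the left and -12.8 points from the right flank. CHG was also lower, with 0.852% in the flanks and a difference of -0.258 points (-0.355 to -0.156), or -0.198 and -0.307 points from the left and the right flank. For CHH the difference from the flanks, at 1.07%, was -0.155 points and its interval includes 0 (-0.427 to 0.153). Its sign changed with the left flank alone (0.0713), with flanks of 1000 kb (0.00875) and without the step beginning at 118450000 (0.0175).

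The CpG difference of Rbfox3 depended on depth in a small subset. Sites with 20 to 22 reads had 59.6% in the window and 70.9% in the flanks, those with 23 to 25 reads 61.9% and 76.8%, and those with 26 to 29 reads 60.3% and 78.9%. At 30 reads or more the order was reversed: 21 window sites had 72.6% and the 49 flank sites were 5.53 points lower. The lower depth classes, in which Rbfox3 was the lower, held 215, 79 and 37 of its 352 sites, and none of its CpG sites had 40 reads. Whether the reversal comes from the few sites was not tested.

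CpG methylation was low in most of the Rbfox3 window. The last step, with 16 sites, had 61.5%, and the 8 steps with at least 20 CpG sites ran from 48.9% to 72.9%, and the intervals of all 8 lay below the autosomal median, beside 31.5% of autosomal 50 kb bins that do. In steps of 25 kb, 10 of the 12 with enough sites were below and 0 above, a count that has no background share beside it. Of these 8 steps 6 were below the 5th percentile of autosomal bins, which was 65.2%. The lowest began at 118450000 (48.9%, 45.8 to 52.0) and 118600000 (49.8%, 46.4 to 53.1), and the highest at 118700000 (72.9%, 70.3 to 75.4), near the right end. Flank steps covered a wider range, from 44.2% to 86.9%, with 9 of 20 below the autosomal median and 5 above it. Thus no window step was lower than the lowest flank step, while all 8 were below the median flank step of 78.0%. The last 100 kb inside the right edge had 67.3% (65.3 to 69.2) and the first 100 kb outside it 73.5% (71.9 to 75). On the left, the outer 100 kb already had 68.6%, made up of a step at 83.3% next to the window and one at 55.2% beyond it.

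Along Rbfox3 the CHG level of the 9 steps ran from 0.361% to 0.853%. Intervals of 3 of 9 steps were below the autosomal median, near the 25% of all autosomal 50 kb bins that are, and of 0 above, where 22.2% of bins are. By their values 8 of 9 were below the median flank step of 0.793%. The 3 poorest steps began at 118600000 (0.361%, 0.198 to 0.606), 118350000 (0.401%, 0.219 to 0.671) and 118650000 (0.467%, 0.300 to 0.694). The step at 118600000 was thus among the lowest for both CHG and CpG. The step at 118450000, lowest for CpG at 48.9%, was in contrast among the 3 richest in CHG. The 3 richest began at 118550000 (0.853%, 0.568 to 1.23), 118450000 (0.763%, 0.519 to 1.08) and 118700000 (0.705%, 0.504 to 0.959), and their intervals overlapped those of the poorest. Only 4 steps had 20 or more CHH sites: 0.178% at 118450000, 2.04% at 118500000, 1.34% at 118650000 and 0.533% at 118700000.

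**Figure D3:**
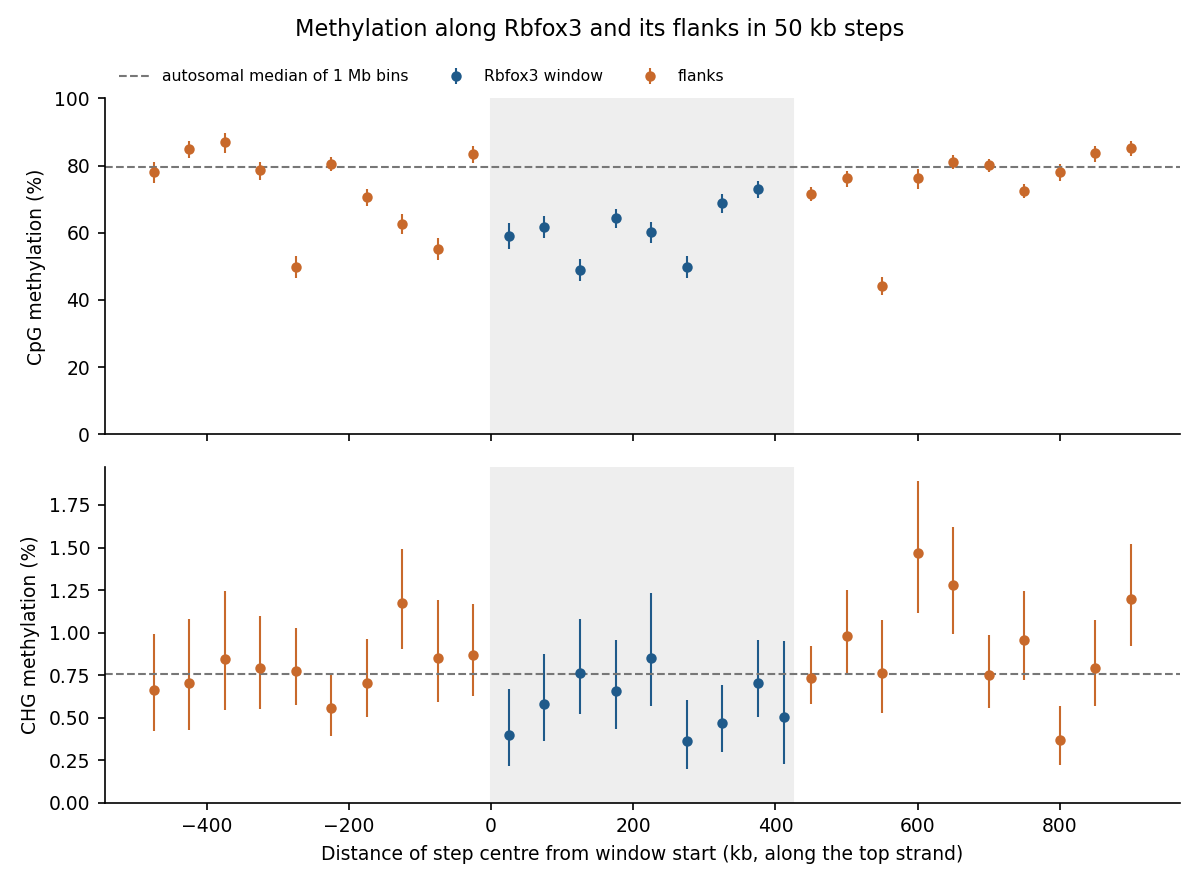
CpG and CHG methylation (percent of reads, 95% counting intervals) of 50 kb steps with at least 20 sites, against the distance of the step centre from the window start in kb. Blue points are steps of the Rbfox3 window (grey shading), orange points its 500 kb flanks, and the dashed line the median of autosomal 1 Mb bins. All 8 CpG steps of the window, 48.9% to 72.9%, lie under the dashed line, whereas flank steps range from 44.2% to 86.9%.

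The low CpG level of Rbfox3 came with many sites of intermediate methylation. The median site level was 65.2%, against 86.4% in the flanks and 88.5% over the autosomes. Of 352 sites, 82 (23.3%, 19 to 28.1) had a level above 20 and up to 50%, compared with 7.99% in the flanks and 8.31% of all autosomal sites. Sites above 80% made up 36.9%, against 59.2% and 64.8%. Sites of at most 20% were 14.8% in the window and 13.0% in the flanks, both above the autosomal 5.40%. In the Rbfox3 flanks, sites of at most 20% outnumbered those above 20 and up to 50%. The reverse held in Rbfox3, as it did over the autosomes and in Rbfox1 and its flanks. Intermediate sites were spread along the gene: their share was 14.0% to 34.9% in the 8 steps, over the autosomal share in 8 of 8, whereas 7 of 20 flank steps exceeded it. In Rbfox1 22 of 31 steps did, as did 13 of 20 of its flank steps. No run of 5 low CpG sites was found in Rbfox3, and 4 runs of at least 3 sites were. These counts too have no background share. They come from 352 CpG sites, against 1705 in Rbfox1, so the run counts of the genes are not comparable as they stand.

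**Figure D4:**
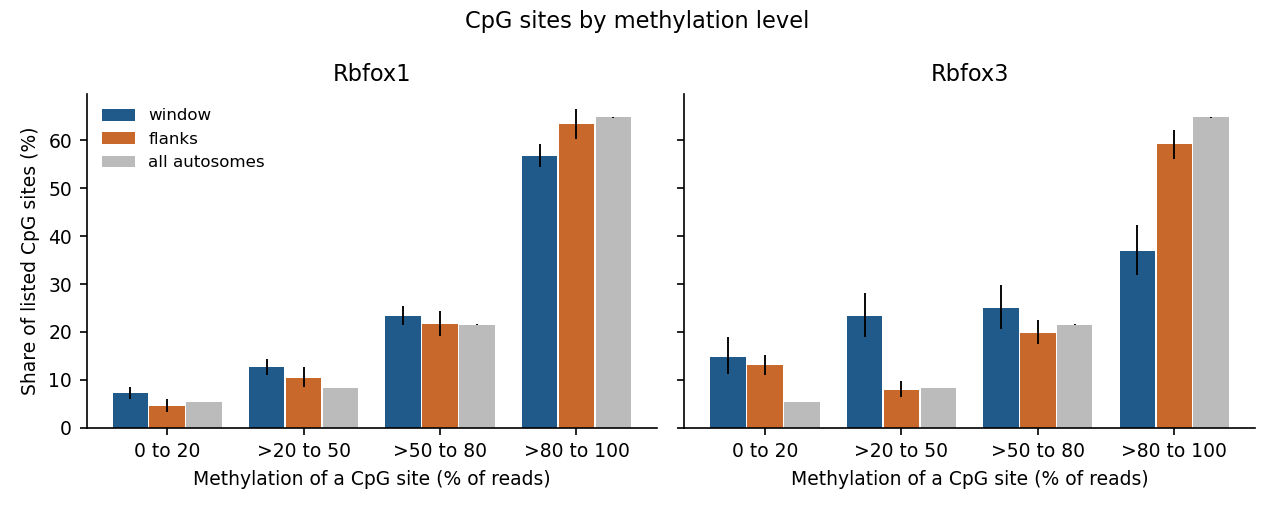
Share of listed CpG sites (percent, bars from 0 with exact 95% intervals) by methylation of the site, in the Rbfox1 and Rbfox3 windows, their flanks and all autosomes. In Rbfox3 23.3% of sites fall above 20 and up to 50%, against 7.99% in the flanks, and 36.9% fall above 80%, against 59.2%.

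CpH methylation was then split by the neighbours that the tables list, since bases were not at hand. A CHG cytosine with a CpG listed at the next position is a CCG. A CHH cytosine followed by a listed cytosine starts with CC, and one with a cytosine listed only at the second next position ends in C. This last class is of interest because CAC is a preferred place of neuronal CpH methylation. A neighbour counts as listed only if deep enough itself, so the classes without a listed neighbour are mixed, and the second-next class can hold CCC beside CAC and CTC.

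In Rbfox1 the CHH level was highest at sites with a cytosine second next only. They had 1.71% (1.5 to 1.93, 447 sites), against 0.683% for CHH without a listed neighbour and 0.369% for CHH with a cytosine next, close to the mitochondrial 0.368%. This order was also that of the autosomes, with 2.06%, 0.767% and 0.355%. The gap between Rbfox1 and its flanks was found in the methylated classes. Sites with a cytosine second next only had 3.3% in the flanks, a difference of window minus flanks of -1.59 points (-2.02 to -1.18). CHH without a listed neighbour had 1.22% there, a difference of -0.532 points (-0.669 to -0.40). CHG without one had 1.05%, against 0.778% in the window, a difference of -0.270 points (-0.329 to -0.212). CHH with a cytosine next was at the background on both sides, with 0.383% in the flanks. CHG before a listed CpG had 0.428% in the window and 0.237% in the flanks, and the difference includes 0 (-0.0399 to 0.402). Among sites of at least 35 reads, the second-next class had 1.23% in the window (90 sites) and 3.47% in the flanks (54 sites). Whether this limit made the classes cleaner was not tested. Of the 560 window CHH sites that passed it, 331 had no listed neighbour, beside 1739 of 2875 without the limit.

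In Rbfox3, from fewer sites, CHH with a cytosine second next only was again the highest class at 2.23% (1.55 to 3.10, 48 sites). CHH with a cytosine next had 0.461% (0.150 to 1.07) and CHH with neither 0.456% (0.256 to 0.752), 2 values that their intervals do not separate. Against its flanks the second-next class did not differ detectably (2.34% there, difference -0.118 with an interval of -0.981 to 0.865). CHH without a listed neighbour differed by -0.541 points (-0.827 to -0.197). CHG without one had 0.595% against 0.879%, a difference of -0.284 points (-0.384 to -0.179). With at least 35 reads the CHG difference changed sign (0.326, interval -0.401 to 2.14), from 8 window sites. The makeup of CHH sites differed between window and flanks, with 25.9% of Rbfox3 sites in the second-next class against 18.3% of flank sites. Its part in the pooled CHH values of Rbfox3 was not tested. In Rbfox1 these shares were 15.5% and 15.9%.

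**Figure D5:**
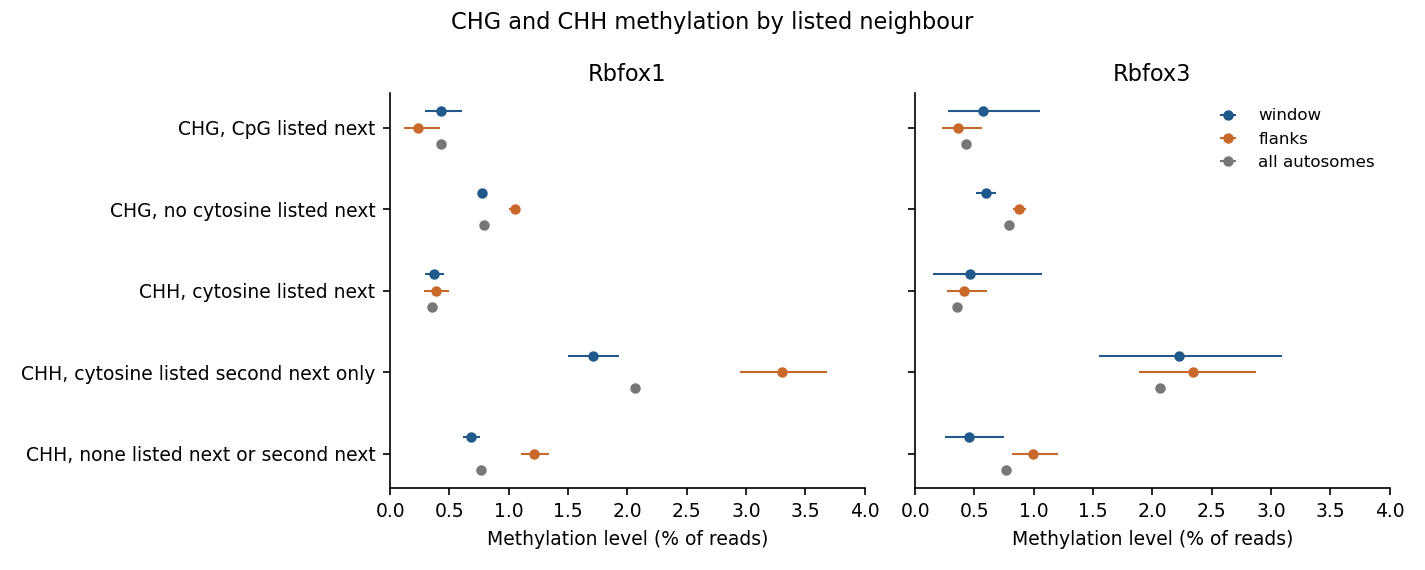
Methylation level (percent of reads, points with exact 95% intervals) of CHG and CHH sites by listed neighbouring cytosines, in the windows, their flanks and all autosomes, for Rbfox1 (left) and Rbfox3 (right). The class with a cytosine second next only is the highest in both genes, at 1.71% in Rbfox1 against 3.3% in its flanks and at 2.23% in Rbfox3 against 2.34%.

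Single sites were called methylated where their reads exceeded the mitochondrial rate in an exact binomial test (one-sided), with Benjamini-Hochberg adjustment at 0.01 over all nuclear sites of the context in the library. In Rbfox1 159 of 11831 CHG sites (1.34%, 1.14 to 1.57) and 58 of 2875 CHH sites (2.02%, 1.54 to 2.60) passed, beside 1.46% and 2.75% of autosomal sites. The flanks held 2.07% and 4.91%. Rbfox3 had 18 of 1536 CHG sites (1.17%, 0.696 to 1.85) and 5 of 185 CHH sites (2.7%, 0.883 to 6.19), near the background. CpG was called at 97.8% of Rbfox1 sites and 96.3% of Rbfox3 sites, where the autosomes had 97.5%. A CpH call took at least 3 methylated reads, so weakly methylated sites escape it. With a null rate of 1% the CHG calls fell to 70 in Rbfox1 (0.592%) and 7 in Rbfox3 (0.456%). The autosomal share fell as well, to 0.673%.

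Most called CpH sites were weakly methylated. The median level of called sites was 17.4% for CHG and 12.9% for CHH in Rbfox1 and 16.7% and 13.3% in Rbfox3. The sites that follow are the extremes, and only 2 of them exceed 50%. The strongest in Rbfox1 was a CHG at chr16:5930306, with 15 of 22 reads methylated (68.2%, 45.1 to 86.1), 182 bases from the nearest listed CpG. The next CHG sites were at 6493481 (9 of 24 reads, 37.5%) and 6042642 (10 of 30 reads, 33.3%), 1177 and 46 bases from a listed CpG. Its strongest CHH sites were at 6815103 (17 of 30 reads, 56.7%), 6360944 (14 of 33 reads, 42.4%) and 6335126 (10 of 31 reads, 32.3%). The first 2 of them have a cytosine listed second next only. In Rbfox3 the leading CHG sites were at chr11:118482612 (8 of 20 reads, 40%), 118732338 (8 of 21 reads, 38.1%) and 118417365 (7 of 26 reads, 26.9%). They lay 24, 17 and 8 bases from a listed CpG. Distances of all listed CHG sites are not given here, so those of the named sites have no background. Its leading CHH sites, at 118528154 (13 of 32 reads, 40.6%), 118657447 (7 of 32 reads, 21.9%) and 118650070 (4 of 30 reads, 13.3%), were all of the second-next class.

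Replicate 1 listed too few sites to repeat these levels. In the Rbfox1 window it had 8 CpG sites with 81.8% (75.1 to 87.4), 23 CHG sites with 4 of 474 reads methylated (0.844%, 0.230 to 2.15) and 60 CHH sites with 16 of 1248 reads (1.28%, 0.735 to 2.07). The CHG level of replicate 2, 0.769%, fell inside the interval of replicate 1, as did its CHH level of 0.768%, while its CpG level of 74.3% was below. In the Rbfox3 window it had 1 CpG, 4 CHG and 17 CHH sites. Against its few flank sites, CHG in replicate 1 was 0.403 points higher in Rbfox1 and 1.15 points higher in Rbfox3, opposite in sign to replicate 2, from 4 and 1 methylated reads. The CHH difference of Rbfox1 in replicate 1 was -3.79 points, with 20 of 394 flank reads methylated at 18 sites.

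Both libraries listed 20 sites of the windows, 4 CpG, 10 CHG and 5 CHH in Rbfox1 and 1 CHG in Rbfox3. By Fisher's exact test 0 of them differed after Benjamini-Hochberg adjustment over all shared sites, beside 0.307% of all shared sites. By the same test 0 of them had an unadjusted p under 0.05, a count that has no background share here. The 4 CpG sites had 18 of 20, 19 of 20, 21 of 21 and 17 of 21 reads methylated in replicate 1, and 24 of 24, 20 of 20, 18 of 20 and 20 of 25 in replicate 2. At the shared CpH sites neither library had a methylated read. At these depths only large differences could be seen.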

How the data were processed

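Bisulfite reads of 2 dentate gyrus libraries were handled with Bismark 0.7.5 on mm9, per the submitters' processing notes. How reads were trimmed or deduplicated is not given in the sources used here. For each top-strand cytosine, the 6 tables the authors deposited (1 per library and context) hold the count of methylated reads, of unmethylated reads and their total. The deposited percent of methylated reads was recovered from these counts. The lowest depth listed was 20 reads, and 30 for CHH in replicate 2. The members, windows and lists were chosen with earlier results of these data known.

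Levels were computed from sites of at most 100 reads with Python 3.11.15, numpy 2.4.6 and scipy 1.17.1. Intervals are exact Clopper-Pearson intervals at 95%, and those of differences combine them by square-and-add; they cover counting error only. Bins of 1 Mb needed 100 sites and steps of 50 kb needed 20. A site was called by a one-sided exact binomial test against the library's mitochondrial CpH rate, with Benjamini-Hochberg adjustment at 0.01. Shared sites were compared by Fisher's exact test (two-sided, Benjamini-Hochberg) at 0.05. Both tests were tested on simulated data. With 1 group there is no comparison between conditions.

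Steps named are the 3 highest and 3 lowest by CHG level where a step has 100 or more CHG sites. Sites named are the 3 called CHG and CHH sites with the highest lower bound. Runs are of at least 5 CpG sites at or below 20%. Alternatives covered depth limits, weighting, flank and step size, the null rate and, chosen after seeing the data, each step left out and bins as long as the window. The placement of promoters, the 380 kb stretches, edges, site classes and depth classes were also added after the data were seen. Other neuronal splicing factors were not analysed here, since no mm9 annotation was used.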

Additional observations from a re-analysis of the deposited data

How the results depend on the processing

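No paired analysis was possible because both libraries belong to 1 group. Differences of window minus flanks are in percentage points. Signs reversed for Rbfox3 CpG at 30 or more reads (5.53), for Rbfox3 CHH with flanks of 1000 kb (0.00875), with the left flank alone (0.0713) and without the window step at 118450000 (0.0175), and, in replicate 1 alone, for CHG of Rbfox1 (0.403) and Rbfox3 (1.15). The causes were not tested. In replicate 1 the CHH differences were -3.79 for Rbfox1 and -2.90 for Rbfox3, and the CpG, CHG and CHH levels were 81.8%, 0.844% and 1.28% in Rbfox1 and 100%, 1.15% and 0.278% in Rbfox3. A minimum of 30 reads gave levels of 75.7% (CpG) and 0.823% (CHG) in Rbfox1 and 72.6% and 0.384% in Rbfox3. A minimum of 40 gave 89.8%, 0.494% and 1.09% (CHH) in Rbfox1 with differences of -0.24, -0.904 and -0.0348, and for Rbfox3 CHH, from 1 site, 0.0% with a difference of -2.70; no Rbfox3 CpG or CHG site was left. Subtracting the mitochondrial level left 0.401% CHG and 0.40% CHH in Rbfox1, and 0.226% and 0.548% in Rbfox3. Flanks of 1000 kb gave Rbfox1 differences of -0.126 (CHG) and -0.459 (CHH), flanks of 250 kb a Rbfox3 CpG difference of -8.69, and single flanks Rbfox1 CpG differences of -0.42 and -6.88. Leaving out 1 step moved the Rbfox3 CpG difference to -13.9 (flank step) and to between -14.1 and -10.3 (window step).

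By neighbour, Rbfox1 CHG without a listed next cytosine had 0.826%, 0.514% and 0.494% at minimums of 30, 35 and 40 reads, and Rbfox3 0.325% and 0.697% at 30 and 35. CHH with neither neighbour had 0.781% and 1.26% in Rbfox1 and 0.833% and 0.0% in Rbfox3 at 35 and 40. The Rbfox1 classes with a cytosine next and second next only had 0.286% at 40 and 1.23% at 35, and Rbfox3 CHG before a CpG had 2.13% at 30. Steps of 25 kb gave 6 of 51 Rbfox1 CpG steps above the autosomal median, and of 61 CHG steps 8 above and 5 below. Steps of 100 kb gave 0 CpG steps above and 13 below of 16 in Rbfox1, and 4 below of 4 in Rbfox3. At 30 reads, 1 of 26 CHG steps was below in Rbfox1 and 0 of 1 in Rbfox3. Shares of autosomal bins at these settings are not given here, so these counts have no background beside them. In Rbfox1 calls at 30 reads numbered 104 CpG (100%, autosomes 98.7%) and 15 CHG (1.65%, autosomes 1.93%). At 40 reads they numbered 3 CpG of 3 sites, 0 CHG of 28 (autosomes 2.01%) and 5 CHH of 109 (4.59%, autosomes 2.47%). A null rate of 1% gave 70 CHG (0.592%, autosomes 0.673%) and 23 CHH (0.80%, autosomes 1.16%). In Rbfox3 calls at 30 reads numbered 21 CpG of 21 sites and 0 CHG of 90. At 40 reads 0 CHH of 1 site were called. A null rate of 1% gave 7 CHG (0.456%) and 2 CHH (1.08%), beside the same autosomal shares. Depth limits of 30 and 40 reads leave few CpG and CHG sites. The other 161 recomputed values kept their direction and stayed within counting error or, for counts, within 1.5 times.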
